A study of Mus musculus with 2 samples.

Results

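Toll-like receptors are the sensors by which myeloid cells recognise microbial lipids, proteins and nucleic acids. The 10 genes described here are the receptors Tlr1, Tlr2, Tlr3, Tlr4, Tlr6, Tlr7, Tlr9 and Tlr13, the coreceptor Cd14 and the adaptor Myd88. They were taken from a list of genes, and all 10 were found among the 32285 genes in the matrices of both libraries. Of these, 8 had at least 100 unique molecular identifiers (UMIs, which tag single transcript copies) in the cells kept from both libraries together. Tlr3, with 10 UMIs, and Tlr9, with 6 UMIs, did not reach this number, so no difference between the libraries is read from them.

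Single-cell RNA-seq was carried out on CD11b+ and CD11c+ cells sorted from colorectal polyps of C57BL6/J mice aged 26 weeks. All mice had been given azoxymethane (AOM), a carcinogen, and then 3 cycles of 1% dextran sodium sulfate (DSS), which injures the colonic epithelium. The whole course lasted 16 weeks. The WT library came from a pool of 5 mice and the Clec7a-/- library from a pool of 4 mice, which lack the β-glucan receptor Dectin-1 in every cell. With 1 library per genotype there was no replicate and no test was possible, so the libraries were compared by size, and differences between mice or between library preparations cannot be told apart from those between genotypes. Clec7a itself was not analysed here, so the genotype labels were not checked against the deleted gene. The 95% intervals in parentheses cover nothing but counting error and are exact Poisson for a level, exact conditional for a ratio and Clopper-Pearson for a share. A level is the number of UMIs of a gene per 1000000 UMIs of the same cells (CPM), and a log2 ratio sets the Clec7a-/- level over the WT level, with 0.5 UMI added to each count.

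After filtering, 2696 WT cells with 12283285 UMIs and 1999 Clec7a-/- cells with 7559096 UMIs remained, with medians of 3412.5 and 2671 UMIs per cell. Both libraries shared 17 cell barcodes, of which 10 were kept in each. The cells formed 15 clusters, drawn without the members among the variable features and named from marker genes. Clusters 1 and 4 were neutrophil-like, clusters 0 and 2 monocyte-like, clusters 5 and 7 macrophage-like and clusters 3, 8 and 10 dendritic cell-like (DC-like). Cluster 6 was called mixed, since neutrophil and monocyte markers were both high in it. T-cell-like cells, which the sort should have removed, made up 2.49% of the WT and 6.05% of the Clec7a-/- cells. Their level is called the background here, for RNA that may not come from the cell itself. Whether these cells, led by genes such as Il17a and Trdc, made any of these transcripts themselves was not tested. T-cell-like cells were also shallower than DC-like cells, with medians of 2058 and 1552 UMIs against 4253 and 4095 UMIs. A level at the background therefore does not exclude expression. The make-up of the libraries differed, with 25.1% and 20.2% neutrophil-like, 13.4% and 4.25% mixed, and 13.4% and 28.2% DC-like cells in the WT and Clec7a-/- libraries. Within the neutrophil-like class, cluster 1 held 492 of 677 WT cells, whereas cluster 4 held 319 of 404 Clec7a-/- cells. Cluster 4 was shallow, with medians of 1154 and 915 UMIs, so that the libraries' neutrophil-like levels are also compared by cluster.

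TLR2 pairs with TLR1 or TLR6 at the cell surface to bind bacterial lipopeptides, and TLR4, with its partner MD-2, binds lipopolysaccharide (LPS), which CD14 hands over to it. TLR3, TLR7, TLR9 and TLR13 sit in endosomes and bind double-stranded RNA, single-stranded RNA, unmethylated CpG DNA and bacterial ribosomal RNA, respectively. MyD88 carries the signal of all of these receptors except TLR3 to NF-κB and the cytokine genes, which in the gut wall is one route from bacteria to inflammation.

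Tlr1 and Tlr6 are neighbours in the genome, and their transcripts are alike enough that reads could in principle be confused. In GRCm38 with GENCODE M21 annotation, Tlr1 lies on the minus strand of chromosome 5 from 64924679 to 64933563 and Tlr6 on the same strand from 64952031 to 64960097, with 18467 bases between them. Of the 2995 stretches of 31 bases in transcript Tlr1-202, 603 (20.1%) were also in transcript Tlr6-201. The longest stretch that both share has 229 bases and lies inside the coding part of a single exon of each gene, at chr5:64925537-64925765 in Tlr1 and chr5:64953828-64954056 in Tlr6. It is shown because it is the longest of the stretches in which reads cannot be told apart, in the 5′ to 3′ direction of the transcripts and in lower case, with no base singled out:
Tlr1 and Tlr6 shared stretch: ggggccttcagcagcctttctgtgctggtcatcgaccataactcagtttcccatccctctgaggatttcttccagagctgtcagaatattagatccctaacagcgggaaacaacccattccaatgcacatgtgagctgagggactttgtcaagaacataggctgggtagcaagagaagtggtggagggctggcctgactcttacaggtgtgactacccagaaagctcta

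The shared stretch ends 858 bases before the end of the Tlr1 transcript and 1797 bases before the end of the Tlr6 transcript, whereas the kit reads transcripts near the 3′ end. Among the 31-base stretches in the last 500 bases, 30 of 470 in Tlr1 and 0 of 458 in Tlr6 were also in the other gene. Tlr2 shared no 31-base stretch with either gene. How reads in the shared stretch were assigned is not given in the sources used here.

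The promoters of Tlr6, Tlr13 and Tlr2 are shown because Tlr6 and Tlr13 were highest in neutrophil-like cells and Tlr2 in monocyte-like cells, as described below. Each is the RefSeq sequence (GRCm38.p6) of 250 bases before and 50 bases from a transcript start. Capitals mark matches, on either strand, to the PU.1 core GAGGAA, to the C/EBP motif TTGCNNAA or to the NF-κB pattern of GGG, any 5 bases and CC. The Tlr6 window is chr5:64959999-64960298 on the minus strand, the Tlr13 window chrX:106143025-106143324 on the plus strand and the Tlr2 window chr3:83841559-83841858 on the minus strand:
Tlr6: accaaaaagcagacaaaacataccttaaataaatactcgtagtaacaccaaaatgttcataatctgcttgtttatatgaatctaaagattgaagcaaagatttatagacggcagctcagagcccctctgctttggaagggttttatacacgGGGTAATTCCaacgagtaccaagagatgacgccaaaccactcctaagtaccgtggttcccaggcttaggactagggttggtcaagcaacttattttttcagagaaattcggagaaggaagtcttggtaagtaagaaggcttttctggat
Tlr13: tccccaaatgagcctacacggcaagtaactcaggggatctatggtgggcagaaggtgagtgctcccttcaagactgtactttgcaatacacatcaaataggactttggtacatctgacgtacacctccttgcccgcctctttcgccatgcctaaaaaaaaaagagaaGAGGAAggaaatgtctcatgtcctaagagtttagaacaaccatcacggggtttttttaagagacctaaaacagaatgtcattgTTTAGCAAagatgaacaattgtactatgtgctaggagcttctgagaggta
Tlr2: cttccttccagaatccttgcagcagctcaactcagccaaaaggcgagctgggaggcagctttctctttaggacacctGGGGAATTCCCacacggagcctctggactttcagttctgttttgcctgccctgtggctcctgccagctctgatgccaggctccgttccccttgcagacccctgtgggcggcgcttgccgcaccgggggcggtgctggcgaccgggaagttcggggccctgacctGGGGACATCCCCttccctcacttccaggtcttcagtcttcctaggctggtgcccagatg

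The Tlr13 window held the PU.1 core at position 168 and the C/EBP motif at position 251, counted from 1 at the 5′ end. In the Tlr6 window the NF-κB pattern was found at position 152, and a second Tlr6 transcript start, at chr5:64959117-64959416, had the C/EBP motif at position 162. The Tlr2 window held 5 matches to the NF-κB pattern, which overlap at positions 78 and 79 and at positions 242, 243 and 244. Of 32851 promoters of the same length, 28.3% held the PU.1 core, 10.8% the C/EBP motif and 50.8% the NF-κB pattern. Tlr1 and Tlr4 were also highest in neutrophil-like cells of both libraries, and Myd88 in those of the WT library. No promoter sequence of Tlr4 was available. The Myd88 window and the Tlr1 window chr5:64932650-64932949 held no match to any of these motifs. The Tlr1 window chr5:64933509-64933808 held the PU.1 core at position 228. Whether matches go with the class of the highest level was not tested. A match describes letters and not binding.

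The other members lie on other chromosomes in the same annotation. Tlr2 spans 83836272 to 83841767 on chromosome 3, Tlr4 66827584 to 66930284 on chromosome 4, and Tlr13 106143204 to 106160493 and Tlr7 167304929 to 167330558 on chromosome X. Tlr9, from 106222598 to 106226883, and Myd88, from 119335934 to 119341411, are on chromosome 9. Cd14 spans 36725067 to 36726798 on chromosome 18 and Tlr3 45395665 to 45411080 on chromosome 8. Myd88 overlaps Slc22a14 on its own strand and Acaa1a on the other, and Tlr3 overlaps the antisense gene Gm45542, so that reads in the overlaps may be split or lost.

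Tlr2 encodes the shared partner of the lipopeptide receptors. In the WT library Tlr2 was at 742 CPM (707 to 778) in monocyte-like cells, 547 CPM (513 to 583) in neutrophil-like cells, 482 CPM (461 to 503) in macrophage-like cells and 29.9 CPM (22.5 to 38.9) in DC-like cells. In the Clec7a-/- library these levels were 954 CPM (905 to 1005), 459.8 CPM (401 to 525), 525 CPM (493 to 557) and 44.1 CPM (36.7 to 52.6). Monocyte-like cells stood highest and DC-like cells lowest in both libraries, and only the neutrophil-like and macrophage-like levels of the Clec7a-/- library did not differ beyond counting error. After each cell was thinned to 1000 UMIs, 45.8% (41.8 to 49.9) of WT and 50.6% (45.8 to 55.3) of Clec7a-/- monocyte-like cells had a Tlr2 UMI, but only 1.79% and 5.49% of T-cell-like cells. Before thinning both monocyte-like shares were 68.4%. The median depth of these cells was 3264 and 2828 UMIs for monocyte-like, 2284.5 and 1823 UMIs for T-cell-like and 2611 and 1428.5 UMIs for neutrophil-like cells. The shares of DC-like cells, 2.40% (1.04 to 4.66) and 5.46% (3.69 to 7.75), were at the T-cell-like share and are read as background.

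Between the libraries, Tlr2 differed in the Ly6c2- and Chil3-expressing monocyte-like cluster 2. There it was at 1152 CPM in the WT and 1772 CPM in the Clec7a-/- library. This is a log2 ratio of 0.62 (0.49 to 0.75), a 1.54-fold difference and so only just past 1.5-fold. Of all genes with at least 100 UMIs in this cluster, 2.95% were past 1.5-fold higher. The whole monocyte-like class gave 0.36 (0.26 to 0.47), not past 1.5-fold. Alternative settings were run for classes and not for single clusters. In cluster 0, the monocyte-like cells with Ccl24, Arg1 and Fn1, the levels of 478 and 466 CPM did not differ beyond counting error. Neither did those of the neutrophil-like clusters, 583 and 551 CPM in cluster 1 and 324 and 416 CPM in cluster 4, although the whole class gave a log2 ratio of −0.25 (−0.47 to −0.04). Of thinned cells in cluster 2, 60.3% (54.4 to 66.0) of WT and 72.2% (65.5 to 78.2) of Clec7a-/- cells had a Tlr2 UMI, with intervals that overlapped slightly. Without thinning the shares were 76.5% and 81.9%. In DC-like cluster 3 Tlr2 was also past 1.5-fold higher, at 51.5 and 89.6 CPM, a log2 ratio of 0.79 (0.26 to 1.35) against 2.63% of genes in that direction, but this level is close to that of the T-cell-like cells, 34.3 and 88.5 CPM.

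The product of Tlr6 binds diacylated lipopeptides with TLR2. Among the 8 members with at least 100 UMIs, Tlr6 had the largest ratio of the highest to the next highest class level. In the WT library it was at 431 CPM (400.3 to 462) in neutrophil-like cells, 56.9 CPM (47.5 to 67.6) in monocyte-like cells, 23.8 CPM (19.3 to 28.9) in macrophage-like cells and 20.1 CPM (14.2 to 27.7) in DC-like cells. In the Clec7a-/- library it was at 778 CPM (701 to 861), 67.2 CPM (54.7 to 81.8), 23.5 CPM (17.3 to 31.3) and 16.0 CPM (11.7 to 21.4). The neutrophil-like level was 7.57 times the next highest in the WT and 11.6 times in the Clec7a-/- library, and only the macrophage-like and DC-like levels did not differ beyond counting error. Neutrophil-like cells, with 53.8% (51.1 to 56.4) of the Tlr6 UMIs in the WT and 56.7% (52.8 to 60.5) in the Clec7a-/- library, held most of this transcript. The mixed cluster 6 lay between the neutrophil-like and monocyte-like classes, at 209.5 and 294 CPM. T-cell-like cells had 80.0 CPM (43.7 to 134) and 37.9 CPM (17.3 to 72.0). The macrophage-like and DC-like levels were under these, the monocyte-like ones within their intervals, so that Tlr6 stood above the T-cell-like level in neutrophil-like and mixed cells only. T-cell-like cells were shallower, with medians of 2058 and 1552 UMIs against 7822 and 6207 UMIs in macrophage-like cells. Expression of Tlr6 in the other classes is therefore not excluded.

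Neutrophil-like cells of the Clec7a-/- library had more Tlr6 than those of the WT library, with a log2 ratio of 0.85 (0.67 to 1.03), a 1.81-fold difference. In this class 9.92% of the 2178 genes with at least 100 UMIs were past 1.5-fold higher. The difference was found in both clusters of the class. In cluster 1, led by Ngp, Ly6g and Retnlg, Tlr6 was at 445 and 749.7 CPM, a log2 ratio of 0.76 (0.46 to 1.04), where 11.3% of genes were past 1.5-fold higher. In the shallow cluster 4 it was at 339.9 and 792 CPM, a log2 ratio of 1.21 (0.86 to 1.59), where 22.8% of genes were past 1.5-fold higher. Of thinned cells, 31.4% (27.3 to 35.7) and 52.4% (41.1 to 63.6) had a Tlr6 UMI in cluster 1, and 23.2% (15.8 to 32.1) and 48.5% (39.9 to 57.2) in cluster 4. Thinning left out 39.5% of the WT and 57.4% of the Clec7a-/- cells of cluster 4, and 0.407% and 3.53% of cluster 1. Without thinning the shares were 65.4% and 72.9% in cluster 1, 31.4% and 47.6% in cluster 4, and 56.1% and 53.0% in the whole class, where WT cells had a median of 2507 and Clec7a-/- cells of 1051 UMIs. The background in T-cell-like cells was 7.14% (1.98 to 17.3) and 3.30% (0.685 to 9.33). The 10 neutrophil markers together, all of them detected, moved the other way in the class, from 42538 to 30073 CPM, and the part of this shift in the Tlr6 result was not tested.

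**Figure D1:**
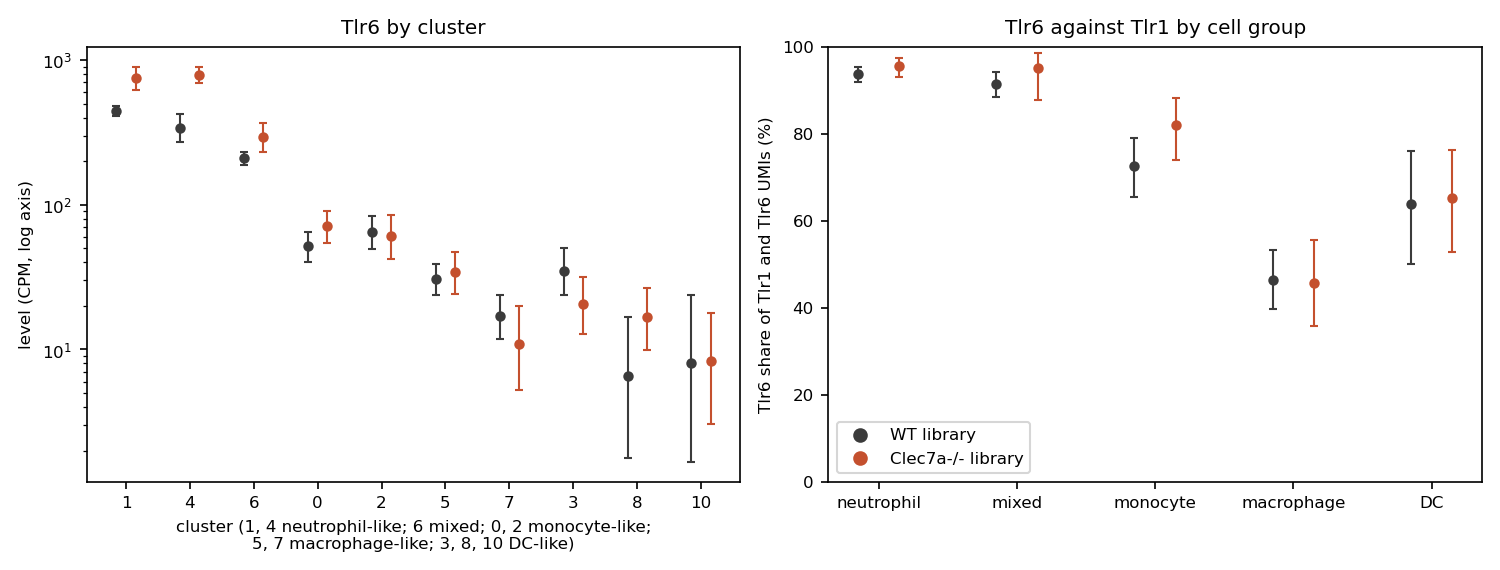
Tlr6 by cluster in CPM on a log axis (left) and the share of Tlr6 among the UMIs of Tlr1 and Tlr6 in percent (right), for the WT and the Clec7a-/- library, with bars for 95% counting intervals. The Clec7a-/- points of clusters 1 and 4 lie above the WT points, at 749.7 against 445 and 792 against 339.9 CPM, and the share is near 46% in macrophage-like and above 93% in neutrophil-like cells.

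Tlr1, whose product binds triacylated lipopeptides with TLR2, was spread more evenly. It was at 28.6 CPM (21.2 to 37.7) in neutrophil-like, 27.3 CPM (22.6 to 32.8) in macrophage-like, 21.4 CPM (15.9 to 28.3) in monocyte-like and 11.4 CPM (7.06 to 17.4) in DC-like cells of the WT library. The order was the same in the Clec7a-/- library, at 35.4 CPM (20.6 to 56.6), 28.0 CPM (21.2 to 36.4), 14.8 CPM (9.27 to 22.4) and 8.53 CPM (5.47 to 12.7). Neutrophil-like and macrophage-like levels did not differ beyond counting error in either library, nor did the macrophage-like and monocyte-like levels of the WT or the monocyte-like and DC-like levels of the Clec7a-/- library. T-cell-like cells had 22.8 CPM (6.22 to 58.5) and 4.21 CPM (0.107 to 23.5), from 4 UMIs and 1 UMI. The first interval holds all 4 WT class levels, and the second the monocyte-like and DC-like levels of the Clec7a-/- library. In these classes Tlr1 could not be told from the background. Only the macrophage-like class had at least 100 Tlr1 UMIs, and there the log2 ratio between the libraries was 0.04 (−0.45 to 0.51).

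Transcripts of both TLR2 partners were set against each other as the share of Tlr6 among the UMIs of Tlr1 and Tlr6, within a library. In the WT library this share was 93.8% (91.9 to 95.3) in neutrophil-like cells, 72.6% (65.5 to 79.0) in monocyte-like cells, 63.8% (50.1 to 76.0) in DC-like cells and 46.5% (39.7 to 53.4) in macrophage-like cells. The Clec7a-/- library gave 95.7% (93.1 to 97.4), 82.0% (74.0 to 88.3), 65.2% (52.8 to 76.3) and 45.6% (35.8 to 55.7). The macrophage-like, DC-like and monocyte-like shares include Tlr6 UMIs at the background level. The share of each WT class also includes Tlr1 UMIs that could not be told from the background. So do the monocyte-like and DC-like shares of the Clec7a-/- library. T-cell-like cells gave 77.8% (52.4 to 93.6) and 90.0% (55.5 to 99.7), from 18 and 10 UMIs. These intervals overlapped those of every class, so the shares are not read as a balance of receptors. The order of the classes was the same in both libraries, and within each class the intervals of both libraries overlapped. Among monocyte-like cells, cluster 2 had 87.9% (77.5 to 94.6) and 91.9% (78.1 to 98.3), from 8 and 3 Tlr1 UMIs. Cluster 0 had 63.7% (54.1 to 72.6) and 77.6% (67.3 to 86.0). The intervals of both clusters overlapped in the Clec7a-/- library.

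**Figure D2:**
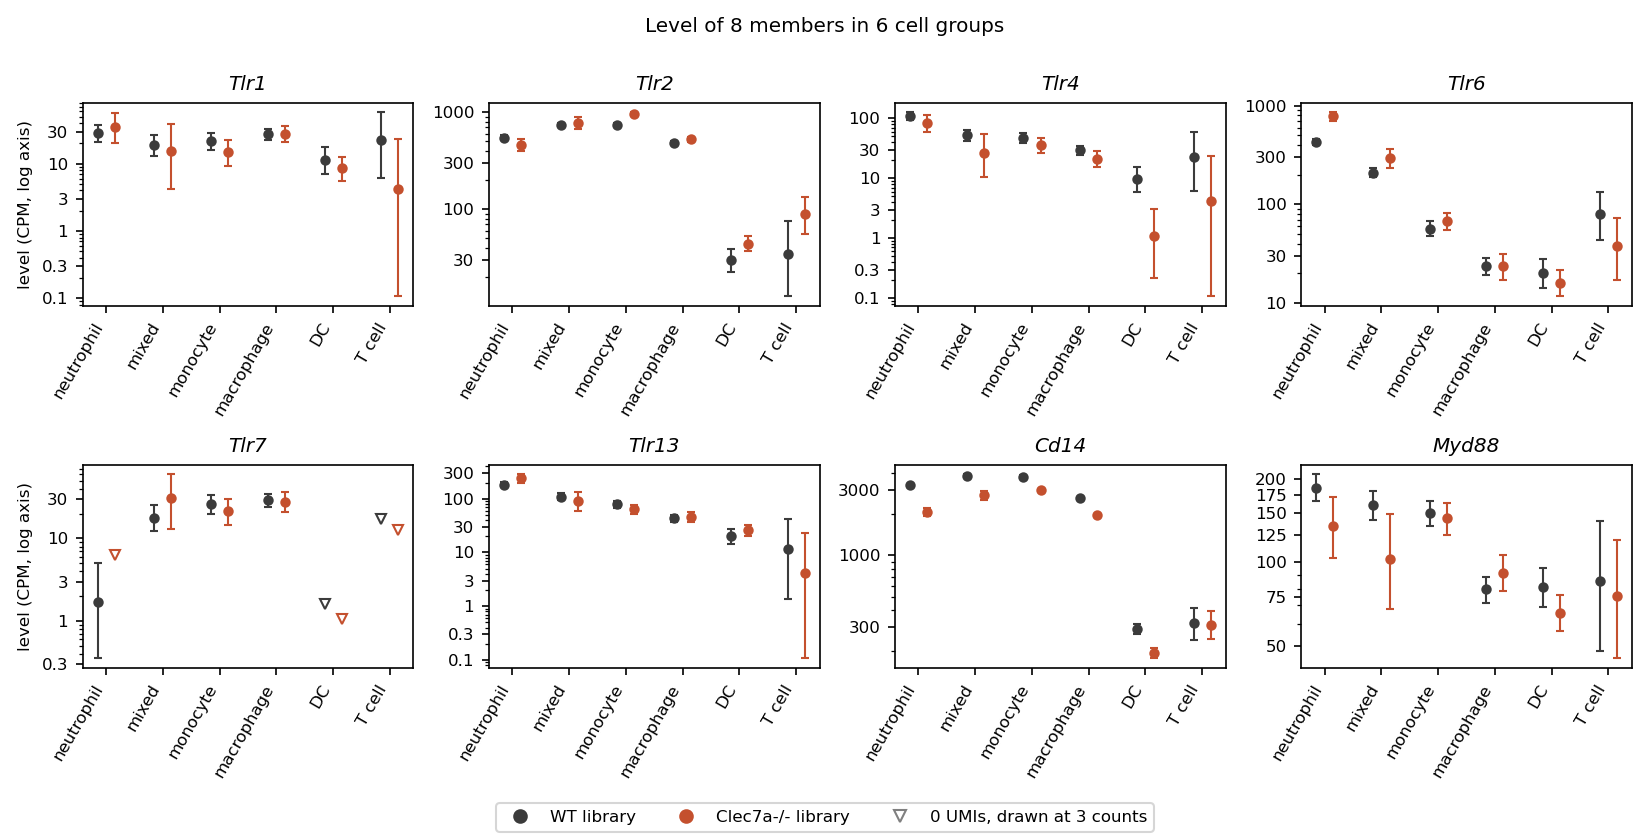
Levels in CPM, on log axes, of the 8 members with at least 100 UMIs in neutrophil-like, mixed, monocyte-like, macrophage-like, DC-like and T-cell-like cells, with a point for each library, bars for 95% Poisson intervals and open triangles at 3 counts where no UMI was found. Tlr6, Tlr4 and Tlr13 are highest in neutrophil-like cells, Tlr2 and Cd14 are low in DC-like cells, near the T-cell-like level, and Tlr7 has no UMI in DC-like or T-cell-like cells.

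Cd14 encodes the coreceptor that transfers LPS to TLR4 and MD-2. In the WT library it was at 3767 CPM (3688 to 3848) in monocyte-like, 3252 CPM (3168 to 3338) in neutrophil-like, 2625 CPM (2577 to 2675) in macrophage-like and 289.7 CPM (266 to 315) in DC-like cells. In the Clec7a-/- library the levels were 2981 CPM (2894 to 3070.2), 2080.5 CPM (1953 to 2214), 1959.9 CPM (1899 to 2022) and 193 CPM (177 to 210.0). The Clec7a-/- level was the lower one in each of these classes, and the order of the classes was the same, although neutrophil-like and macrophage-like levels did not differ beyond counting error in the Clec7a-/- library. T-cell-like cells had 319.8 CPM (242 to 415) and 312 CPM (245 to 391), so the DC-like class as a whole was not above the background. DC-like cluster 3 stood higher than that class, at 445 CPM (401 to 492) and 372 CPM (336 to 412). Its intervals overlapped those of T-cell-like cells. Expression of Cd14 in DC-like cells is therefore not excluded.

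Over all cells Cd14 was at 2674 CPM in the WT and 1440.4 CPM in the Clec7a-/- library, which is a log2 ratio of −0.89 (−0.92 to −0.86). Of the 8470 genes with at least 100 UMIs, 5.70% were past 1.5-fold lower and 10.2% past 1.5-fold higher over all cells. TMM scaling, which sets the bulk of genes at no difference, turned these shares into 9.37% lower and 5.74% higher, those of neutrophil-like cells into 14.9% and 6.75%, and those of monocyte-like cells into 4.82% and 1.68%. In neutrophil-like cells the log2 ratio was −0.64 (−0.74 to −0.55), against 9.37% of genes past 1.5-fold lower, and it was −0.56, no longer past 1.5-fold, with a mean over cells. Inside the clusters of this class the differences were smaller, with 3518 and 2794 CPM in cluster 1, a log2 ratio of −0.33 (−0.48 to −0.19), and 1613 and 1737 CPM in cluster 4, a log2 ratio of 0.11 (−0.08 to 0.30). Cluster 4, which had the lower level in both libraries, held most of the class in the Clec7a-/- library only.

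Of the 7 neutrophil-like, monocyte-like, macrophage-like and mixed clusters, the 6 other than cluster 4 had less Cd14 in the Clec7a-/- library beyond counting error. The log2 ratio was −0.45 (−0.53 to −0.38) in cluster 0 and −0.20 (−0.27 to −0.13) in cluster 2, both monocyte-like. It was −0.35 (−0.42 to −0.28) and −0.54 (−0.62 to −0.46) in the macrophage-like clusters 5 and 7, and −0.48 (−0.60 to −0.37) in the mixed cluster 6. None of these 6 reached 1.5-fold. In T-cell-like cells the log2 ratio was −0.04 (−0.56 to 0.49). The other non-myeloid groups had fewer than 100 Cd14 UMIs each. B- or plasma-cell-like cells, with 14 and 5 UMIs, gave −1.61 (−3.52 to −0.14). Epithelial-like cells, with 14 and 7 UMIs, gave −1.48 (−3.08 to −0.12). Mast-cell-like cells had 12 and 0 UMIs. In DC-like cluster 3 the log2 ratio was −0.26 (−0.47 to −0.05). Past 1.5-fold lower were DC-like cluster 8, at 169 and 102 CPM against 4.67% of genes, and cluster 10, at 132 and 77.1 CPM against 5.04% of genes, at levels under the T-cell-like background. The neutrophil markers, which DC-like cells should lack, were at 1987 and 1215 CPM in the DC-like class, and their part in the Cd14 difference there was not tested. They were at 2448 and 2136 CPM in monocyte-like and at 1843 and 1458 CPM in macrophage-like cells, where their part was not tested either.

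Most cells of the myeloid classes had a Cd14 UMI also after thinning. The share was 92.8% (90.4 to 94.7) of WT and 90.0% (86.8 to 92.7) of Clec7a-/- monocyte-like cells, and 86.6% (83.3 to 89.5) and 83.7% (78.8 to 87.9) of macrophage-like cells. In neutrophil-like cells it was 84.6% (81.4 to 87.3) and 74.8% (68.5 to 80.4), with 91.4% and 86.6% in cluster 1 and 54.5% and 67.6% in cluster 4. Unthinned, the neutrophil-like shares were 86.3% and 72.3%. DC-like cells, at 17.4% (13.5 to 21.9) and 14.1% (11.3 to 17.4), were at the share of T-cell-like cells, 17.9% (8.91 to 30.4) and 9.89% (4.62 to 17.9).

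Tlr4, the LPS receptor itself, was highest in neutrophil-like cells. Its WT levels were 111 CPM (95.9 to 128) in neutrophil-like, 47.3 CPM (38.8 to 57.1) in monocyte-like, 29.2 CPM (24.3 to 34.9) in macrophage-like and 9.78 CPM (5.80 to 15.5) in DC-like cells, and every neighbour in this order differed beyond counting error. The Clec7a-/- library had the same order, at 83.2 CPM (59.5 to 113), 35.6 CPM (26.7 to 46.6), 21 CPM (15.2 to 28.4) and 1.07 CPM (0.220 to 3.12). In T-cell-like cells, 4 WT UMIs and 1 Clec7a-/- UMI gave 22.8 CPM (6.22 to 58.5) and 4.21 CPM (0.107 to 23.5), so the DC-like levels are read as background, and the macrophage-like levels and the WT monocyte-like level also lay within these intervals. Of thinned neutrophil-like cells, 11.5% (9.03 to 14.3) of WT and 5.96% (3.21 to 9.98) of Clec7a-/- cells had a Tlr4 UMI, against 3.57% (0.435 to 12.3) and 0 of 91 T-cell-like cells, which allows up to 3.30%.

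Over all cells Tlr4 was at 44.2 CPM (40.6 to 48.1) in the WT and 20.0 CPM (16.9 to 23.4) in the Clec7a-/- library, which is a log2 ratio of −1.14 (−1.42 to −0.88). In this comparison 5.70% of all genes were past 1.5-fold lower and 10.2% higher. Within the 3 classes with at least 100 Tlr4 UMIs the ratios were smaller. They were −0.40 (−0.94 to 0.08) in neutrophil-like, −0.40 (−0.91 to 0.08) in monocyte-like and −0.46 (−1.02 to 0.04) in macrophage-like cells, and each interval held 0. DC-like cells, with 18 and 3 UMIs at the background level, gave −3.01 (−5.60 to −1.42). In cluster 1 the levels of 121 and 135 CPM did not differ beyond counting error, and cluster 4, with 12 and 19 UMIs, had 49.1 and 58.5 CPM. Monocyte-like cluster 2, with 41 and 13 UMIs, had 45.8 and 23.4 CPM, a log2 ratio of −0.93 (−1.99 to −0.04). Cluster 0 gave −0.16 (−0.77 to 0.42), the mixed cluster 6 −0.89 (−2.34 to 0.12), and the macrophage-like clusters 5 and 7 −0.73 (−1.58 to 0.01) and −0.18 (−0.96 to 0.51). A log2 ratio of −1.14, as over all cells, lay outside the interval of each of the 3 classes. It lay inside those of clusters 2, 5 and 6, which had fewer than 100 UMIs each.

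Tlr13, a receptor for bacterial 23S ribosomal RNA that humans lack, was also highest in neutrophil-like cells. It was at 182 CPM (162 to 203) there in the WT library, at 78.8 CPM (67.7 to 91.2) in monocyte-like, 43.2 CPM (37.2 to 50) in macrophage-like and 20.1 CPM (14.2 to 27.7) in DC-like cells. In the Clec7a-/- library it was at 239 CPM (198 to 287), 63.2 CPM (51.1 to 77.3), 45.6 CPM (36.7 to 55.9) and 26.3 CPM (20.7 to 33.0). Each neighbour in this order differed beyond counting error in both libraries, and T-cell-like cells had 11.4 CPM (1.38 to 41.3) and 4.21 CPM (0.107 to 23.5). The WT DC-like level lay within the first of these intervals, so that it could not be told from the background. Tlr4, Tlr6 and Tlr13 were the members whose level in 1 of the 4 classes was at least 2 times that in each of the other 3, in the same class of both libraries. This held for 18.8% of the 8470 genes with at least 100 UMIs, and for 649 of them the class was the neutrophil-like one.

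Between the libraries the neutrophil-like level of Tlr13 gave a log2 ratio of 0.40 (0.08 to 0.71). The clusters of the class differed in this. In cluster 1 the levels were 195 and 231 CPM, a log2 ratio of 0.26 (−0.30 to 0.75), and in cluster 4 they were 102 and 243 CPM, a log2 ratio of 1.23 (0.58 to 1.96). Of thinned cells, 16.5% and 17.1% had a Tlr13 UMI in cluster 1, and 2.68% (0.556 to 7.63) and 22.8% (16.0 to 30.8) in cluster 4. Unthinned, the shares were 43.3% and 31.8% in cluster 1 and 12.4% and 20.1% in cluster 4. The WT level of cluster 4 rests on 25 UMIs, and 22.8% of genes in that cluster were past 1.5-fold higher.

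Tlr7, the receptor for single-stranded RNA, was highest in macrophage-like and monocyte-like cells among the 4 main classes. It was at 29.2 CPM (24.3 to 34.9) and 25.8 CPM (19.7 to 33.3) in these classes of the WT library and at 28.0 CPM (21.2 to 36.4) and 21.5 CPM (14.7 to 30.4) in the Clec7a-/- library, and neither pair of neighbours differed beyond counting error. Neutrophil-like cells had 3 UMIs in the WT and 0 in the Clec7a-/- library. DC-like cells had none in either, which allows up to 1.63 CPM in the WT and 1.07 CPM in the Clec7a-/- library at 3 counts per library. The measured macrophage-like level was 17.9-fold above this limit in the WT and 26.3-fold above it in the Clec7a-/- library. The counting error of the macrophage-like level does not enter these folds. Between the libraries the macrophage-like log2 ratio was −0.05 (−0.54 to 0.41).

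Tlr3, for double-stranded RNA, and Tlr9, for CpG DNA, were hardly seen in these cells. Tlr3 had 2 UMIs in the WT and 8 in the Clec7a-/- library, of which 3 of the latter were in macrophage-like and 2 in DC-like cells. Tlr9 had 4 and 2 UMIs, 3 and 1 of them in macrophage-like cells. No cell thinned to 1000 UMIs had a Tlr9 UMI, which allows up to 0.120% of 2510 WT and 0.177% of 1692 Clec7a-/- cells with a UMI at that depth and does not limit the share of cells that express the gene. Both genes were under the minimum of 100 UMIs in every cell group. Over all cells the few Tlr3 UMIs gave a log2 ratio of 2.47 (0.38 to 5.97) and those of Tlr9 one of −0.15 (−3.77 to 2.50). Neither is read as a difference, since both counts are under the minimum.

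Myd88, the adaptor downstream, differed less between classes than Tlr2, Tlr4, Tlr6, Tlr13 or Cd14. In the WT library it was at 186 CPM (167 to 208) in neutrophil-like, 150.1 CPM (135 to 167) in monocyte-like, 81.5 CPM (69.0 to 95.7) in DC-like and 79.8 CPM (71.5 to 88.8) in macrophage-like cells, a 2.33-fold range. In the Clec7a-/- library it was at 135 CPM (104 to 172), 144 CPM (125 to 164), 65.8 CPM (56.6 to 76.0) and 91.6 CPM (78.8 to 106), a 2.19-fold range. The macrophage-like and DC-like levels of the WT library and the neutrophil-like and monocyte-like levels of the Clec7a-/- library did not differ beyond counting error. T-cell-like cells, at 85.7 CPM (47.9 to 141) and 75.8 CPM (45.0 to 119.9), were close to the macrophage-like and DC-like levels.

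Between the libraries Myd88 gave log2 ratios of −0.45 (−0.87 to −0.07) in neutrophil-like, −0.06 (−0.31 to 0.19) in monocyte-like, 0.20 (−0.07 to 0.46) in macrophage-like and −0.31 (−0.63 to 0.01) in DC-like cells. None was past 1.5-fold, but with TMM scaling the neutrophil-like ratio was −0.59, past it. In cluster 1 the levels were 183 and 160.2 CPM, and in cluster 4, with fewer than 100 UMIs, 205 and 123 CPM. The mixed cluster 6 was past it, at 160.3 and 103 CPM, a log2 ratio of −0.62 (−1.27 to −0.07), where 8.87% of genes were past 1.5-fold lower. The Clec7a-/- value there rests on 27 UMIs.

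**Figure D3:**
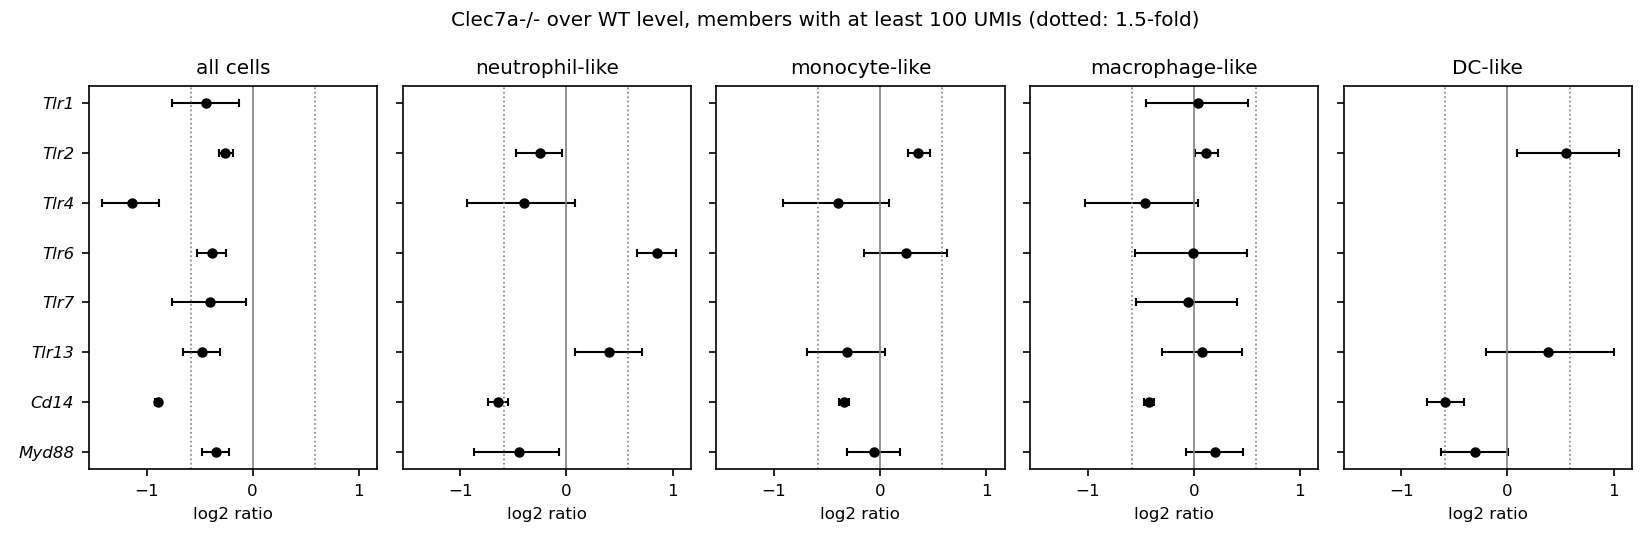
Log2 ratio of the Clec7a-/- over the WT level for members with at least 100 UMIs, over all cells and in each class, with bars for 95% counting intervals and dotted lines at 1.5-fold. Over all cells the 8 members lie left of 0, with Tlr4 and Cd14 past 1.5-fold, whereas within the 4 classes shown only Tlr6 (neutrophil-like, 0.85) and Cd14 (neutrophil-like, −0.64, and DC-like, −0.59) are past it.

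Over all cells together, the 8 members had a median log2 ratio of −0.42, beside a median of 0.13 for all genes. Each member was lower in the Clec7a-/- library, and Tlr4 and Cd14 were past 1.5-fold, beside 5.70% of all genes lower and 10.2% higher. The medians lay closer to those of all genes within the classes. They were −0.32 for 6 members and −0.01 for all genes in neutrophil-like cells, −0.19 for 6 members and 0.02 in monocyte-like cells, 0.02 for 8 members and −0.01 in macrophage-like cells, and 0.03 for 4 members and 0.02 in DC-like cells. Of the 6 members in neutrophil-like cells, Tlr6 was past 1.5-fold higher and Cd14 lower, beside 9.92% of genes higher and 9.37% lower. Past 1.5-fold were 0 of 6 members in monocyte-like cells, where 2.82% of genes were higher and 3.33% lower, and 0 of 8 in macrophage-like cells, where 1.96% were higher and 2.98% lower. In DC-like cells, where 3.29% were higher and 3.13% lower, Cd14 alone was past 1.5-fold, and it was not past it with a limit of 10% mitochondrial UMIs, with all variable features, with 30 components or with 500 to 6000 detected genes. In the last of these its log2 ratio was −0.42, and Tlr2 was past 1.5-fold higher, at 0.82.

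To see how far the make-up of the libraries entered the values over all cells, the Clec7a-/- levels of the 15 clusters were averaged with the WT library's share of UMIs in each cluster as the weight. Tlr6 then stood higher in the Clec7a-/- library, at 173 CPM against 114 CPM in the WT library, and its log2 ratio went from −0.38 to 0.60 (0.42 to 0.78). With each cell counted equally, as a mean over cells, the Tlr6 log2 ratio over all cells was 0.35. For Tlr2 the log2 ratio went from −0.26 to 0.19 (0.12 to 0.27). Those of Tlr1, Tlr7 and Tlr13 went from −0.44 to 0.09 (−0.31 to 0.49), from −0.40 to 0.05 (−0.33 to 0.43) and from −0.48 to 0.06 (−0.17 to 0.29). Tlr4, from −1.14 to −0.30 (−0.65 to 0.05), and Myd88, from −0.35 to −0.16 (−0.33 to 0.01), stayed below 0 with intervals that held 0. Cd14 was the member whose level stayed lower beyond counting error, with a log2 ratio of −0.39 (−0.43 to −0.35). These intervals use a normal approximation to the Poisson error. The weighting was not worked out for all genes, so no share of all genes stands beside these values. Whether such ratios are usual among genes was not tested.

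**Figure D4:**
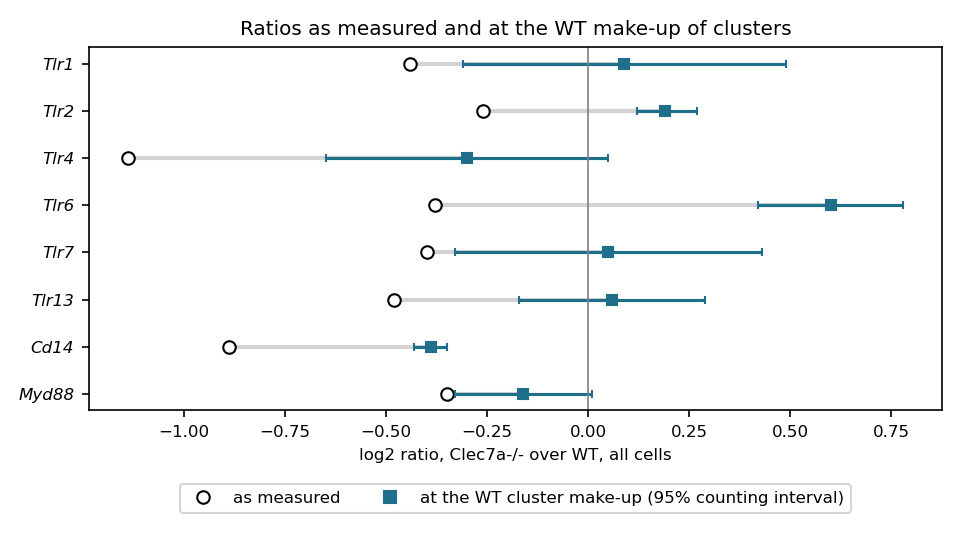
Log2 ratio of the Clec7a-/- over the WT level over all cells, as measured (open circles) and with the Clec7a-/- clusters weighted as in the WT library (squares, with 95% counting intervals). All 8 circles lie below 0, whereas the squares of Tlr2 and Tlr6 lie above 0 and that of Cd14 below 0 beyond their intervals. The weighting was not worked out for all genes.

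Of the 39 genes on a list of other Toll-like receptor partners, trafficking proteins, kinases and transcription factors, 32 had at least 100 UMIs over all cells. Their median log2 ratio was 0.06, and 4 were past 1.5-fold lower and 0 past 1.5-fold higher, beside 5.70% and 10.2% of all genes. Irak3, a brake on signalling downstream of MyD88, was at 142 and 68.0 CPM, a log2 ratio of −1.06 (−1.21 to −0.92). Ikbke, a kinase upstream of interferon regulatory factors, gave −0.88 (−1.05 to −0.71), the adaptor Pik3ap1 −0.81 (−0.90 to −0.72) and the scavenger receptor Cd36, a partner of TLR2 and TLR6, −0.63 (−0.73 to −0.53). Irak3, Ikbke and Pik3ap1 were past 1.5-fold in none of the neutrophil-like, monocyte-like and macrophage-like classes, in each of which they had at least 100 UMIs. Irak3 was still lower in neutrophil-like cells, at −0.38 (−0.63 to −0.15). In monocyte-like cells Ikbke gave −0.41 (−0.71 to −0.12) and Pik3ap1 −0.30 (−0.50 to −0.09). The other intervals of these classes held 0. In DC-like cells, with fewer than 100 UMIs each, Ikbke gave −1.47 (−2.27 to −0.74) and Irak3 −0.94 (−1.73 to −0.17). Pik3ap1 did not differ there beyond counting error. Over all cells Ly96, which encodes the TLR4 partner MD-2, was at 65.8 and 46.0 CPM, a log2 ratio of −0.51 (−0.70 to −0.33).

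Cd36 was past 1.5-fold lower in monocyte-like cells too, at 167 and 73.9 CPM, a log2 ratio of −1.17 (−1.50 to −0.87), as 1 of 23 listed genes with at least 100 UMIs there, where 3.33% of all genes were past 1.5-fold lower and 2.82% higher. In macrophage-like cells 3 of 26 were past 1.5-fold, 1 lower and 2 higher, beside 2.98% and 1.96% of all genes. These were Cd36, lower at 428 and 225 CPM, and Cd180, a TLR4-like receptor, and Slc15a4, a transporter of the endosomal receptors' compartment, higher at 24.9 and 37.5 CPM and at 44.7 and 67.6 CPM. Of 13 in neutrophil-like cells, where 9.92% of all genes were past 1.5-fold higher and 9.37% lower, Unc93b1, the chaperone that brings TLR7 and TLR13 to endosomes, was higher at 72.0 and 117 CPM, and Tollip, an inhibitor of TLR signalling, was lower at 59.5 and 37.4 CPM with an interval of the log2 ratio from −1.48 to 0.06. None of 22 was past 1.5-fold in DC-like cells, beside 3.29% of all genes higher and 3.13% lower.

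The genes most like each member were sought over the 15 clusters, with both libraries summed, by Pearson's r of log2(CPM + 10). Tlr2 and Cd14 were most like each other, with r = 0.972. Tlr6 was most like Il10rb, a subunit of the receptors for IL-10 and IL-22, with r = 0.988, and Tlr7 most like the macrophage scavenger receptor Msr1, with r = 0.972. Tlr13 was most like the kinase gene Syk, with r = 0.953, and like Pik3ap1, also with r = 0.953. For Tlr4 it was the transcription factor gene Ets2, with r = 0.969, for Myd88 Nab1, with r = 0.981, and for Tlr1 Hilpda, with r = 0.867. The clusters share the libraries, and these values describe likeness only.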

How the data were processed

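CD11b+ and CD11c+ cells of colorectal polyps were measured in 1 library of 5 pooled WT mice and 1 library of 4 pooled Clec7a-/- mice. The authors deposited raw UMI counts per gene and barcode, without normalization, made with the SeekOne MM 3′ kit according to the methods, while the labels' description names another platform. The submitters' processing notes name Cell Ranger 2.1.1 and mm10, and how reads shared between genes were counted is not given in the sources used here. The study's cell filter was applied, which keeps 200 to 4000 detected genes per cell and a mitochondrial share of UMIs no higher than 5%. This removed 729 WT and 1057 Clec7a-/- barcodes over the mitochondrial limit. Cells were clustered in Seurat 5.3.0 (R 4.3.3) after LogNormalize to 10000, on 2000 variable features, less the members, the listed pathway genes and sex-linked genes (1993 used), with 20 principal components, at a resolution of 0.8, the lowest to give 15 clusters or more. No batch correction was made. Scrublet in scanpy 1.11.5 called 0.0742% of WT and 0.4% of Clec7a-/- cells doublets, too few to be relied on, and none were removed. Cluster names rest on at least 3 markers. Cluster 4 was named neutrophil-like from 7 of 10 markers, none of them among its 10 leading genes, at 0.338 and 0.343 of the libraries' median UMIs per cell.

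UMIs were summed per gene, class and library. With 1 library per genotype no test was run. A gene was counted as past the threshold at a 1.5-fold ratio with at least 100 UMIs in both libraries together, and the share of all such genes past it is given beside the counts of members and listed genes. For shares of cells, cells were thinned to 1000 UMIs (seed 1), which left out 6.90% of WT and 15.4% of Clec7a-/- cells. Genes named are the members, listed pathway genes past 1.5-fold and the genes most like each member, with Ly96 added after its values were seen. The members and lists were chosen with earlier results of these data known. The ratios were tried on simulated Poisson counts, the same error that the intervals assume. The simulated counts hold no variation between cells, mice or library preparations, so they say nothing about these. Python 3.11.15, numpy 2.4.6, scipy 1.17.1, pandas 2.3.3, matplotlib 3.10.9 and edgeR 4.0.16 (TMM) were used. Alternatives were a limit of 10% mitochondrial UMIs, 500 to 6000 genes, Scrublet calls removed, all variable features, a resolution higher by 0.4, 30 components, reciprocal PCA, a mean over cells, TMM scaling, 5 UMIs added, a minimum of 20 UMIs, and thinning to 2000 UMIs or none. Removing the 5% highest Scrublet scores and removing barcodes held by both libraries were added after seeing the data.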

Additional observations from a re-analysis of the deposited data

How the results depend on the processing

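The classes were drawn again under each clustering alternative, and the 32 log2 ratios of a member in a cell group kept their sign in every setting run for 26. Of 384 values under alternatives, 366 lay inside the counting interval of the main value and 18 outside. The 366 include the 32 ratios with a minimum of 20 UMIs, which leaves each value as it is. A turned sign was looked for only in ratios past 1.5-fold in the main setting, and 0 of their values turned it. The ratios without a constant sign were Tlr6 over all cells and 5 ratios near 0. Tlr6 over all cells went from −0.60 with 500 to 6000 detected genes to 0.35 with a mean over cells. The 5 near 0 were of Tlr1, Tlr6, Tlr7 and Tlr13 in macrophage-like and Myd88 in monocyte-like cells. TMM scaling moved every log2 ratio over all cells by −0.17 and in neutrophil-like cells by −0.14, so that the median of the 8 members became −0.59 and 4 of them (Tlr1, Tlr4, Tlr13 and Cd14) were past 1.5-fold, beside 9.37% of all genes lower and 5.74% higher, as the shift moves every gene alike. The same scaling put Myd88 past it in neutrophil-like cells, at −0.59, beside Tlr6 and Cd14, and a mean over cells left 1 member there, Tlr6. With 500 to 6000 detected genes, Tlr6 over all cells was past 1.5-fold lower as well. In macrophage-like cells a limit of 10% mitochondrial UMIs put 1 member, Tlr4, past it. In DC-like cells 0 members were past 1.5-fold with a limit of 10% mitochondrial UMIs, with all variable features and with 30 components. The number was 2 with the highest Scrublet scores removed, with a mean over cells (Tlr2 and Cd14) and with a minimum of 20 UMIs (Tlr4 and Cd14). Tlr4 in the last of these rests on 18 and 3 UMIs. With 500 to 6000 detected genes 1 member was past it, but this was Tlr2, higher at 0.82, in place of Cd14, at −0.42. The cause was not tested. The share of all genes past 1.5-fold was worked out anew for TMM scaling only, so the counts under the other alternatives have none beside them. The same 3 members topped the neutrophil-like class in each setting tried. No paired analysis was possible because each genotype had 1 library and no test was run, and for the same reason no replicate could be left out.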

Other observations

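The 771 WT and 1081 Clec7a-/- barcodes that the filter left out, with 3585930 and 4249134 UMIs, entered no comparison. Cd14 was at 1248 CPM (1212 to 1285) in the WT and 612 CPM (589 to 636) in the Clec7a-/- barcodes left out, and Tlr2 at 286 CPM (269 to 304) and 169 CPM (157 to 182). Tlr6 was at 22.9 CPM (18.2 to 28.4) and 22.6 CPM (18.3 to 27.6), well under its level in the cells kept. Tlr3 had 7 and 9 UMIs among these barcodes, more than the 2 and 8 UMIs in the cells kept. Which cell types they hold was not tested.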
